A study of Mus musculus with 6 samples.

Results

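The 10 genes described here encode brakes that act inside the T cell on signals from the T cell receptor: the ubiquitin ligases Cblb, Cbl and Itch, the diacylglycerol kinases Dgka and Dgkz, the tyrosine phosphatases Ptpn22 and Ptpn2, the phosphatase-like proteins Ubash3a and Ubash3b, and the adaptor Sla. They were taken by symbol from a table of 14515 genes, and all 10 were present and passed the filter on low counts, as did 9565 genes in all. Each library holds the RNA of 100000 splenic naive CD8 T cells of 1 mouse, from 3 LAIR-1-deficient mice (Lair1-/-) and 3 wild type mice (Lair1+/+), and the labels name no treatment of the cells. The sort gate included CD45, CD3 and CD8 and left out cells with CD44. LAIR-1, a collagen receptor of leukocytes, carries inhibitory motifs in its tail. The age, sex and strain of the mice and the part of Lair1 that the allele removes are not stated in the labels, and the labels do not limit the deletion to T cells. The question of the comparison is whether the resting transcriptome differs in cells that lack this receptor.

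When the T cell receptor binds its ligand, the kinases Lck and ZAP-70 phosphorylate the receptor chains and adaptors, phospholipase C gamma makes diacylglycerol, and diacylglycerol opens the Ras and protein kinase C branches. Each of these steps has an intracellular brake: phosphatases remove the phosphate groups, ubiquitin ligases mark receptor chains and signalling proteins for removal, and diacylglycerol kinases convert diacylglycerol to phosphatidic acid. LAIR-1 itself signals through phosphatases recruited to its cytoplasmic tail, so it works at the membrane beside these brakes.

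Of the 10 brakes, 0 passed the test for a difference between LAIR-1-deficient and wild type cells. edgeR's quasi-likelihood test, adjusted by the Benjamini-Hochberg method over all 9565 genes, called 0 of 10 at an adjusted p under 0.05, against 0.0105% of all genes, which is 1 gene, Lair1. At an unadjusted p under 0.05 it found 0 of 10, against 3.25% of all genes, and DESeq2 and limma-voom also called 0. The log2 fold changes, LAIR-1-deficient over wild type, lay between -0.26 and 0.15, with 5 positive and 5 negative and a median of -0.0067, against a median of 0.00059 over all genes. The adjusted p was 0.9999 for each of the 10. For 9 of the 10, the 95% interval excluded a difference of 1.5-fold or more either way, which was so for 63.2% of all genes, and for 10 of 10 it excluded 2-fold, which was so for 85.9%. The libraries of the groups overlapped for each of the 10 genes, while they did not overlap for 8.38% of all genes.

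**Figure D1:**
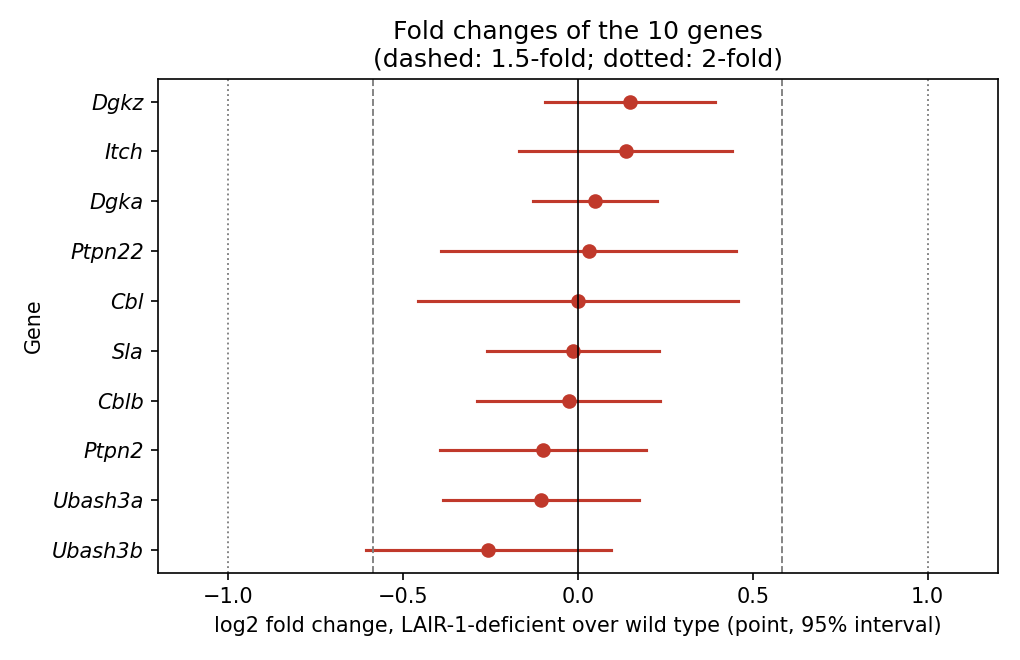
Log2 fold change of each of the 10 genes, LAIR-1-deficient over wild type (points), with its 95% interval from edgeR (lines), n = 3 mice per group; dashed lines mark 1.5-fold and dotted lines 2-fold. Each interval includes 0, and the one for Ubash3b, from -0.61 to 0.09, is the one that reaches past 1.5-fold.

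Library totals ran from 5519748 to 7296424 counts in LAIR-1-deficient and from 7974206 to 9187017 in wild type mice, so the LAIR-1-deficient libraries were the shallower ones. Lair1 checked the labels: it had 2, 1 and 1 counts in LAIR-1-deficient mice 1 to 3, against 58, 32 and 43 counts in wild type mice 1 to 3, with a log2 fold change of -4.58 and an adjusted p of 0.00255 in edgeR. Without wild type mouse 1, edgeR gave a log2 fold change of -4.26 (adjusted p = 0.0592), and limma-voom gave -4.20 and 0.142, so the call was lost while the size of the difference stayed close. Levels below are CPM, that is counts relative to a library size scaled with TMM factors, given for mice 1 to 3 of each group in that order.

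The sorted cells carried the genes of CD8 T cells in both groups. Of 10 genes on the list for naive CD8 T cells, 10 were tested, led by Cd8b1 (1457, 1466 and 1511 CPM in LAIR-1-deficient mice, against 1468, 1577 and 1503 CPM in wild type mice) and Cd3e. The list also holds Cd44, whose product the sort gate selected against. Cd44 was at 21.8, 14.8 and 11.2 CPM in LAIR-1-deficient mice, against 12.0, 13.1 and 12.5 CPM in wild type mice. Genes of other cell types were low. The 7 measured B cell genes, led by Cd79b and Cd79a, summed to 28.8 to 35.6 CPM in LAIR-1-deficient and 32.1 to 35.3 CPM in wild type libraries. The 10 measured myeloid genes summed to 61.4 to 78.5 CPM and 64.8 to 82.0 CPM, most of it Cst3, followed by Fcer1g, while Lyz2 was at 0 in 2 of 3 libraries of each group. The 8 natural killer genes summed to 402 to 455 CPM and 413 to 431 CPM through Nkg7 and Eomes, which CD8 T cells also express, and Ncr1 was at 0 in 2 LAIR-1-deficient and 3 wild type libraries. The 6 genes of CD4 and regulatory T cells, led by Ikzf2 and Ctla4, summed to 11.9 to 16.4 CPM and 10.7 to 14.7 CPM. The 6 measured platelet and erythroid genes, led by Ppbp and Pf4, summed to 1.07 to 3.96 CPM in LAIR-1-deficient and 3.37 to 6.05 CPM in wild type libraries. Cd44, Lyz2 and Ncr1 were chosen after their values were seen.

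The level of the 10 brakes spanned a wide range. Because longer transcripts can collect more counts, levels of different genes were compared as CPM per kb of annotated exon, averaged over the 6 libraries with the range in parentheses. Dgka stood highest at 307 CPM per kb (278 to 320), followed by Ptpn22 at 58.2 (47.9 to 73.5), Dgkz at 33.6 (28.1 to 39.7) and Ptpn2 at 15.2 (12.6 to 18.3). The ranges of these genes did not overlap, so their order held in each library. Sla at 6.0 (5.56 to 6.65) and Cblb at 5.66 (5.18 to 6.63) were not separated beyond their spread. Ubash3b at 3.50 (2.89 to 4.50) overlapped Itch at 2.83 (2.51 to 3.50), which overlapped Ubash3a at 2.67 (2.31 to 2.99). Cbl was lowest at 0.730 CPM per kb (0.549 to 0.850), with no overlap with the gene above it. The labels do not say which part of a transcript the reads cover. If they come from one end, CPM without length is the fitting scale, and on it 6 of the 10 genes keep their rank, while Cblb takes the 4th place, Ptpn2 the 6th, Ubash3a the 7th and Ubash3b the 9th. Dgka alone made up 59.1% to 65.0% of the summed CPM of the 10 genes in each library, and among all tested genes its CPM lay at the 98.9th percentile, with Ptpn22 at the 97.0th and Cbl at the 28.5th.

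**Figure D2:**
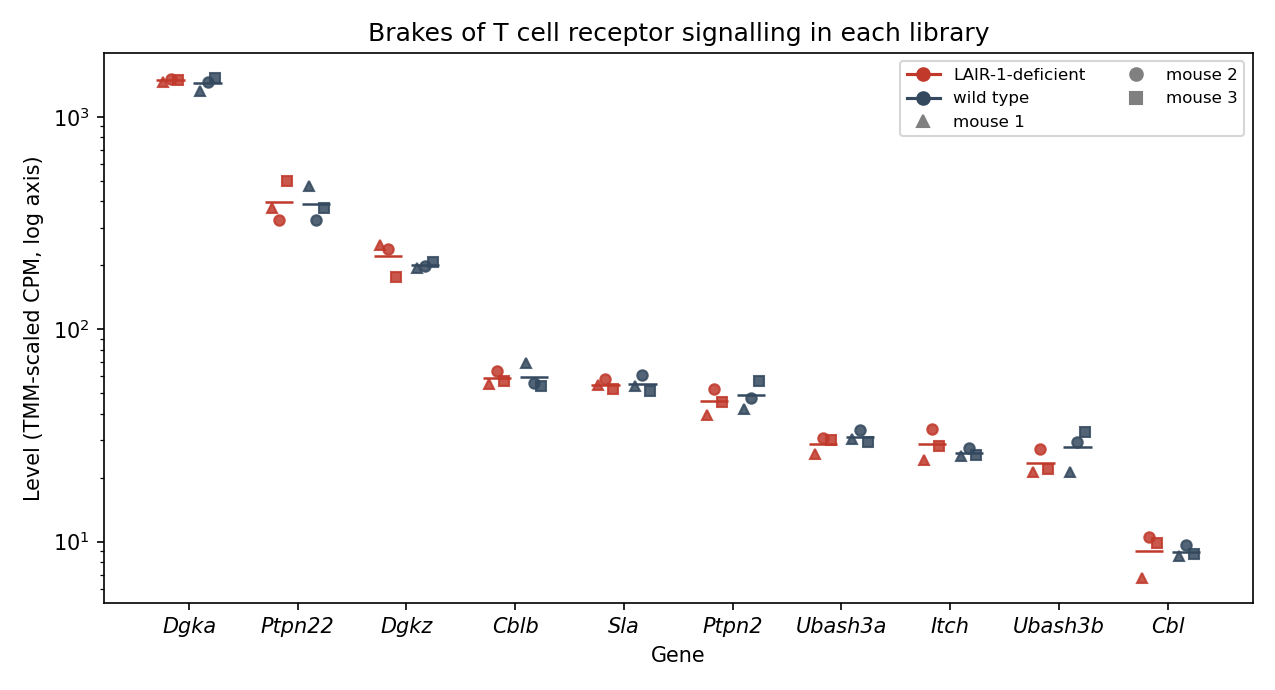
Level of the 10 genes in each library, in TMM-scaled CPM on a log axis, with LAIR-1-deficient mice in red to the left of wild type mice in blue; symbols give the mouse number and bars the group mean, n = 3 each. Genes span from about 9.01 CPM for Cbl to 1462 CPM for Dgka, and the libraries of the groups overlap for each gene.

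Among the ubiquitin ligases, Cblb, the RING-type ligase that makes T cell activation depend on CD28 costimulation, spans chromosome 16, 52031225 to 52208048 on the plus strand, in GRCm38. It was at 55.1, 63.9 and 57.3 CPM in LAIR-1-deficient mice, against 69.5, 55.6 and 54.3 CPM in wild type mice. Wild type mouse 1 was the highest library, followed by LAIR-1-deficient mouse 2, and the remaining libraries lay between 54.3 and 57.3 CPM. The means were 58.7 ± 4.57 CPM in LAIR-1-deficient and 59.8 ± 8.42 CPM in wild type cells (SD, n = 3 each), a log2 fold change of -0.03 (95% interval -0.29 to 0.24.) Cbl, its close relative, ubiquitinates active receptor and kinase complexes and is known above all from thymocytes. Its gene spans chromosome 9, 44142976 to 44234049 on the minus strand. Cbl had the fewest counts of the 10, 47 to 88 per library, and was at 6.77, 10.5 and 9.84 CPM in LAIR-1-deficient mice, against 8.58, 9.63 and 8.75 CPM in wild type mice. LAIR-1-deficient mice were both the lowest and the highest, so the wild type values lay inside their range. The log2 fold change was 0.0016 (95% interval -0.46 to 0.46.)

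Itch, a HECT-type ligase that takes part in T cell anergy and targets JunB, spans chromosome 2, 155133509 to 155226855 on the plus strand. It was at 24.4, 34.0 and 28.3 CPM in LAIR-1-deficient mice, against 25.4, 27.6 and 25.6 CPM in wild type mice. The LAIR-1-deficient mice spread over a wider range that contained all wild type values. The means were 28.9 ± 4.83 CPM in LAIR-1-deficient and 26.2 ± 1.22 CPM in wild type cells (SD, n = 3 each). The log2 fold change was 0.14 (95% interval -0.17 to 0.44.) Without LAIR-1-deficient mouse 1 the libraries of the groups no longer overlapped for Itch and Cbl, both higher in LAIR-1-deficient mice, where 20.7% of all genes had no overlap. The log2 fold changes were then 0.24 and 0.17, and 0 of 10 brakes were called. Without LAIR-1-deficient mouse 2 they were 0.0090 for Itch and -0.11 for Cbl.

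The diacylglycerol kinases were the most abundant family. Dgka, which keeps diacylglycerol low in resting and anergic T cells, spans chromosome 10, 128720134 to 128744855 on the minus strand and had 8499 to 13565 counts per library. It was at 1458, 1512 and 1491 CPM in LAIR-1-deficient mice, against 1325, 1464 and 1522 CPM in wild type mice. Wild type mouse 1 was the lowest and wild type mouse 3 the highest, with the LAIR-1-deficient mice between them. The means were 1487 ± 27.0 CPM in LAIR-1-deficient and 1437 ± 101 CPM in wild type cells (SD, n = 3 each), and the log2 fold change of 0.05 had the narrowest 95% interval of the 10, -0.13 to 0.23. Dgka shares 105 exon bases with Pmel on the other strand, which had 0 to 3 counts per library. Dgkz, the isoform that limits Ras activation after receptor triggering, spans chromosome 2, 91932824 to 91975864 on the minus strand. It shares 222 exon bases with Gm9821 on the other strand, which is not among the genes counted, so its share of the reads is not known. Dgkz was at 249, 239 and 176 CPM in LAIR-1-deficient mice, against 193, 198 and 208 CPM in wild type mice. LAIR-1-deficient mice 1 and 2 were above the wild type mice and LAIR-1-deficient mouse 3 was below them. The log2 fold change was 0.15 (95% interval -0.09 to 0.39.) Without LAIR-1-deficient mouse 3 it was 0.29, with an unadjusted p of 0.0122 and an adjusted p of 0.999 in edgeR, and the groups then had no overlap, as had 18.7% of all genes. Without LAIR-1-deficient mouse 1 it was 0.05, and without mouse 1 of both genotypes 0.03.

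Of the tyrosine phosphatases, Ptpn22 encodes PEP, which dephosphorylates Lck, Fyn and ZAP-70. The gene spans chromosome 3, 103859795 to 103912247 on the plus strand. It was at 372, 325 and 498 CPM in LAIR-1-deficient mice, against 473, 327 and 371 CPM in wild type mice. One mouse of each group was high, LAIR-1-deficient mouse 3 and wild type mouse 1, and the other 4 lay between 325 and 372 CPM. The means were 398 ± 89.5 CPM in LAIR-1-deficient and 390 ± 74.8 CPM in wild type cells (SD, n = 3 each), with a log2 fold change of 0.03 (95% interval -0.39 to 0.45.) Its range over the 6 libraries, 0.62 on the log2 CPM scale, was wider than or equal to that of 92.2% of the 501 tested genes nearest to it in level. Ptpn2 encodes TC-PTP, which acts on Lck and Fyn and on the kinases and STAT factors of cytokine receptors. The gene spans chromosome 18, 67665511 to 67724595 on the minus strand. It was at 39.5, 52.5 and 45.4 CPM in LAIR-1-deficient mice, against 42.1, 47.4 and 57.2 CPM in wild type mice. Both mouse 1 libraries were low and wild type mouse 3 was the highest. The log2 fold change was -0.10 (95% interval -0.39 to 0.20.)

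Ubash3a and Ubash3b encode the paralogs STS-2 and STS-1, which carry ubiquitin-binding, SH3 and histidine phosphatase domains; STS-1 dephosphorylates ZAP-70. Ubash3a spans chromosome 17, 31207873 to 31246892 on the plus strand and was at 25.9, 30.8 and 30.1 CPM in LAIR-1-deficient mice, against 30.3, 33.6 and 29.4 CPM in wild type mice. LAIR-1-deficient mouse 1 was the lowest library and the other 5 lay between 29.4 and 33.6 CPM. The log2 fold change was -0.11 (95% interval -0.38 to 0.17.) Ubash3b spans chromosome 9, 41011098 to 41161697 on the minus strand and was at 21.2, 27.2 and 22.0 CPM in LAIR-1-deficient mice, against 21.3, 29.3 and 33.0 CPM in wild type mice. Wild type mice 2 and 3 were highest, but wild type mouse 1 was as low as LAIR-1-deficient mice 1 and 3. The means were 23.5 ± 3.27 CPM in LAIR-1-deficient and 27.9 ± 5.97 CPM in wild type cells (SD, n = 3 each). The log2 fold change of -0.26 was the farthest from 0 of the 10, with a 95% interval of -0.61 to 0.09 and an unadjusted p of 0.142 in edgeR. Wild type mouse 1 was the wild type library that went against the difference, so leaving it out widens the difference by construction. The log2 fold change was then -0.41, with an unadjusted p of 0.0200 and an adjusted p of 0.999 in edgeR. The groups then had no overlap, as had 17.9% of all genes. Without wild type mouse 3 the log2 fold change was -0.12.

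Sla encodes SLAP, an adaptor with SH2 and SH3 domains that works with Cbl to bring the receptor's zeta chain to degradation. Its gene spans chromosome 15, 66780819 to 66831829 on the minus strand, inside the span of Tg on the other strand, with no shared exon bases and 0 to 9 counts per library for Tg. Sla was at 54.3, 58.0 and 52.2 CPM in LAIR-1-deficient mice, against 54.0, 61.1 and 51.0 CPM in wild type mice. All 6 libraries lay close together, with both mouse 2 libraries highest. The means were 54.9 ± 2.91 CPM in LAIR-1-deficient and 55.4 ± 5.15 CPM in wild type cells (SD, n = 3 each), with a log2 fold change of -0.01 (95% interval -0.26 to 0.23.) In these bulk libraries, fewer cells of a type and less RNA per cell cannot be told apart.

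The balance between the 2 members of a family, which does not depend on library scaling, was compared as the ratio of raw counts, a comparison chosen after the values were seen. Dgka had 5.86, 6.34 and 8.45 times the counts of Dgkz in LAIR-1-deficient mice, against 6.86, 7.40 and 7.33 times in wild type mice. The wild type ratios lay inside the LAIR-1-deficient range. Cblb had 8.13, 6.08 and 5.82 times the counts of Cbl in LAIR-1-deficient mice, against 8.10, 5.77 and 6.21 times in wild type mice, so mouse 1 of each genotype had the highest ratio. Ubash3a had 1.13 to 1.37 times the counts of Ubash3b in LAIR-1-deficient mice and 0.891 to 1.42 times in wild type mice. Ptpn22 had 6.19 to 11.0 times the counts of Ptpn2 in LAIR-1-deficient mice and 6.48 to 11.2 times in wild type mice. In two-sided exact permutation tests of the log2 ratios the p-values were 0.6, 1, 0.7 and 1, and the adjusted p was 1 for each of the 4 ratios; 3 against 3 mice cannot give less than 0.1.

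The brakes also varied between mice of a genotype. Immediate early genes, which stimuli such as a T cell receptor signal induce within minutes, were high in both mouse 1 libraries. What induced them was not tested. Of 15 on the list, 13 were tested, and 12 of these were highest in mouse 1 of both genotypes, against 16.9% of all genes. The exception, Tagap, named after its values were seen, was highest in mouse 1 of the wild type group but not of the LAIR-1-deficient group. High values in mouse 1 were already known from earlier results of these data when the list was chosen. The count of 12 therefore describes the pattern and does not test it. Nr4a1 was at 588, 78.3 and 56.7 CPM in LAIR-1-deficient mice and at 473, 80.4 and 113 CPM in wild type mice, and Cd69 was at 973, 169 and 210 CPM and at 907, 191 and 232 CPM. Of the brakes, 5 of 10 (Cbl, Itch, Dgka, Ptpn2 and Ubash3b) were lowest in mouse 1 within both genotypes, and 0 were highest there in both. Over all tested genes these shares were 16.9% and 16.9%. The steps were small next to those of the immediate early genes. For the 5 brakes, the mouse 1 libraries lay 0.03 to 0.37 (log2 CPM) below the LAIR-1-deficient mean and 0.04 to 0.36 below the wild type mean. Some steps were slight: Itch was at 25.4 CPM in wild type mouse 1 and at 25.6 CPM in wild type mouse 3. Cblb was high in wild type mouse 1 only, at 0.22 above its group's mean, against 0.09 below it in LAIR-1-deficient mouse 1. Without mouse 1 of both genotypes, which leaves 2 mice against 2, 4 of the 10 brakes had no overlap between groups (Cblb, Cbl and Itch higher in LAIR-1-deficient mice and Ubash3b lower), against 32.9% of all genes. Their log2 fold changes were then 0.13, 0.14, 0.22 and -0.35, and 0 brakes were called. What part the mouse 1 pattern has in these values was not tested.

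**Figure D3:**
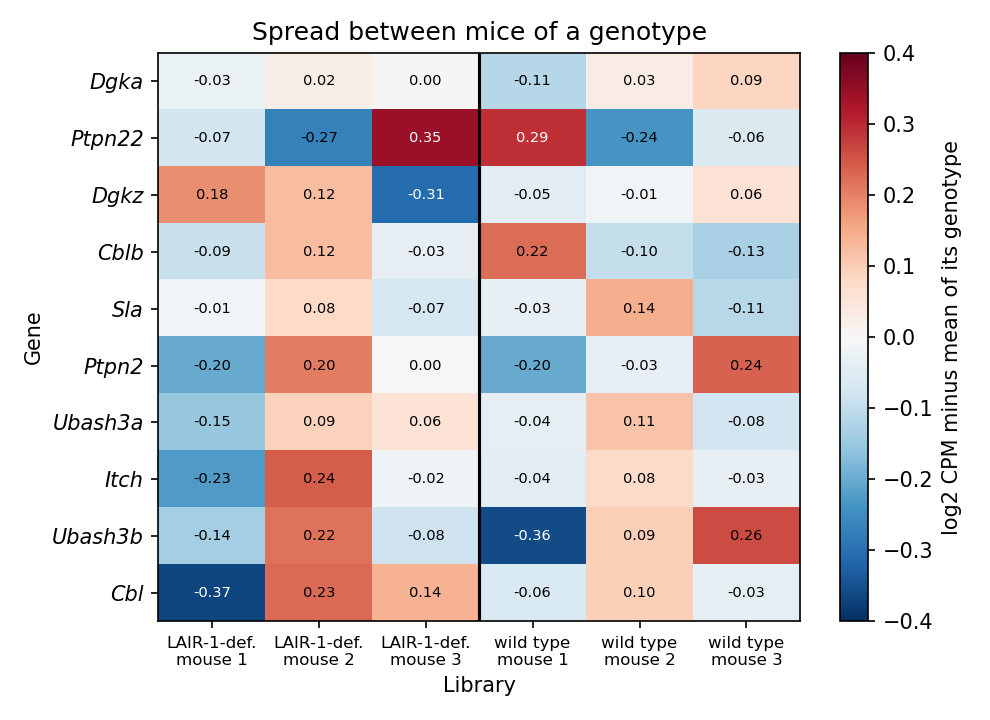
Deviation of each library from the mean of its own genotype for the 10 genes, in log2 CPM, with LAIR-1-deficient mice in the left 3 columns and wild type mice in the right 3. Cbl, Itch, Dgka, Ptpn2 and Ubash3b are lowest in mouse 1 of both genotypes, and Ptpn22 is high in LAIR-1-deficient mouse 3 (0.35) and wild type mouse 1 (0.29).

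The 3 brakes with the widest range over the 6 libraries were Ubash3b, Ptpn22 and Cbl. Among 6619 other genes at a mean of 10 CPM or more, the log2 CPM pattern over the 6 libraries closest to that of Ubash3b was that of Xiap and Rab18 (Pearson r of 0.98 each), to that of Ptpn22 that of Cry1 (0.98) and Abr (0.97), and to that of Cbl that of Csrp2bp (0.99) and Adam17 (0.98). These are the highest of 6619 values computed over 6 libraries that share depth and mouse differences, and they are given as a description. Among the brakes themselves the highest r was that of Ptpn2 with Ubash3b (0.89), both low in the mouse 1 libraries, and the lowest that of Cblb with Dgka (-0.69), where wild type mouse 1 was highest for Cblb and lowest for Dgka.

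Genes that work with or beside these brakes were set beside them from 6 lists. Of their 93 genes, 92 were in the table and 76 were tested; edgeR called 0, at an unadjusted p under 0.05 there were also 0, and DESeq2 and limma-voom called 0. Log2 fold changes were positive for 47 of the 76 and negative for 29, and their median was 0.03. Over all genes, 50.2% were positive and the median was 0.00059. The groups did not overlap for 5 of the 76 (6.58%), a smaller share than the 8.38% of all genes. Among these 5, named after their values were seen, were Csk, Prkcq and Ptpn11, with higher values in LAIR-1-deficient mice, and Sh3kbp1, with lower values.

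Other ubiquitin ligases and their adaptors (13 tested) had 5 positive and 8 negative log2 fold changes with a median of -0.09. The smallest p-values belonged to the deubiquitinase Otud7b, at 13.9 ± 2.54 CPM in LAIR-1-deficient and 16.9 ± 3.36 CPM in wild type cells, and the ligase Traf6, at 22.0 ± 4.74 and 26.2 ± 5.16 CPM (SD, n = 3 each). Genes of diacylglycerol metabolism and response (7 tested) had 6 positive values and 1 negative, the median being 0.05. Rasgrp1, the diacylglycerol-activated exchange factor for Ras that both kinases restrain, was the negative one, at 134 ± 11.6 CPM in LAIR-1-deficient and 146 ± 6.29 CPM in wild type cells (SD, n = 3 each), a log2 fold change of -0.13. Dgkd, another diacylglycerol kinase, was at 65.0 ± 4.67 CPM in LAIR-1-deficient and 60.5 ± 5.47 CPM in wild type cells (SD, n = 3 each). Other isoforms of the kinase did not pass the filter, except Dgke, which was at 5.04 to 6.39 CPM.

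Other phosphatases and their partners (12 tested) had 9 positive and 3 negative log2 fold changes, with a median of 0.03. Csk, the kinase that inactivates Lck and binds the product of Ptpn22, was at 319, 311 and 321 CPM in LAIR-1-deficient mice, against 301, 282 and 287 CPM in wild type mice. The groups did not overlap, which was so for 8.38% of all genes. The log2 fold change of Csk, 0.13 (95% interval -0.05 to 0.31), had an adjusted p of 0.9999 in edgeR. Pag1, the membrane adaptor that holds Csk, was at 24.4, 34.0 and 32.1 CPM in LAIR-1-deficient mice, against 32.7, 36.5 and 33.9 CPM in wild type mice, where the low library was LAIR-1-deficient mouse 1. Ptpn6 and Ptpn11, which encode the phosphatases SHP-1 and SHP-2 that inhibitory receptors recruit and which were named after their values were seen, had log2 fold changes of 0.0038 and 0.10. Ptpn4, likewise chosen, lay farthest from 0 at -0.68 (95% interval -1.82 to 0.47), with 0.577, 0.711 and 3.42 CPM in LAIR-1-deficient mice, against 2.14, 3.06 and 2.58 CPM in wild type mice. Its LAIR-1-deficient libraries lay on both sides of the wild type ones, and the gene was low, at a mean of 2.08 CPM. Adaptor genes (10 tested) had a median of 0.07, with Themis, which regulates thymic selection, at a log2 fold change of 0.20. Sh3bp2 had one of -0.45 at 2.54 ± 0.272 CPM in LAIR-1-deficient and 3.47 ± 1.15 CPM in wild type cells (SD, n = 3 each). The list of brakes of Ras and of other signalling steps (10 tested) split into 5 positive and 5 negative. The Ras GTPase-activating genes Rasa3 and Rasa1 had log2 fold changes of 0.20 and -0.26. The 24 tested targets of these brakes, the receptor chains, kinases and adaptors, had 15 positive and 9 negative values, the median being 0.04. The largest value there was that of Sos1, a Ras exchange factor, at 20.0, 23.3 and 27.3 CPM in LAIR-1-deficient mice, against 16.4, 18.7 and 22.0 CPM in wild type mice, with a log2 fold change of 0.31 (95% interval -0.04 to 0.65.) Stat5b, a factor downstream of the kinases that Ptpn2 acts on, had a log2 fold change of 0.18.

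**Figure D4:**
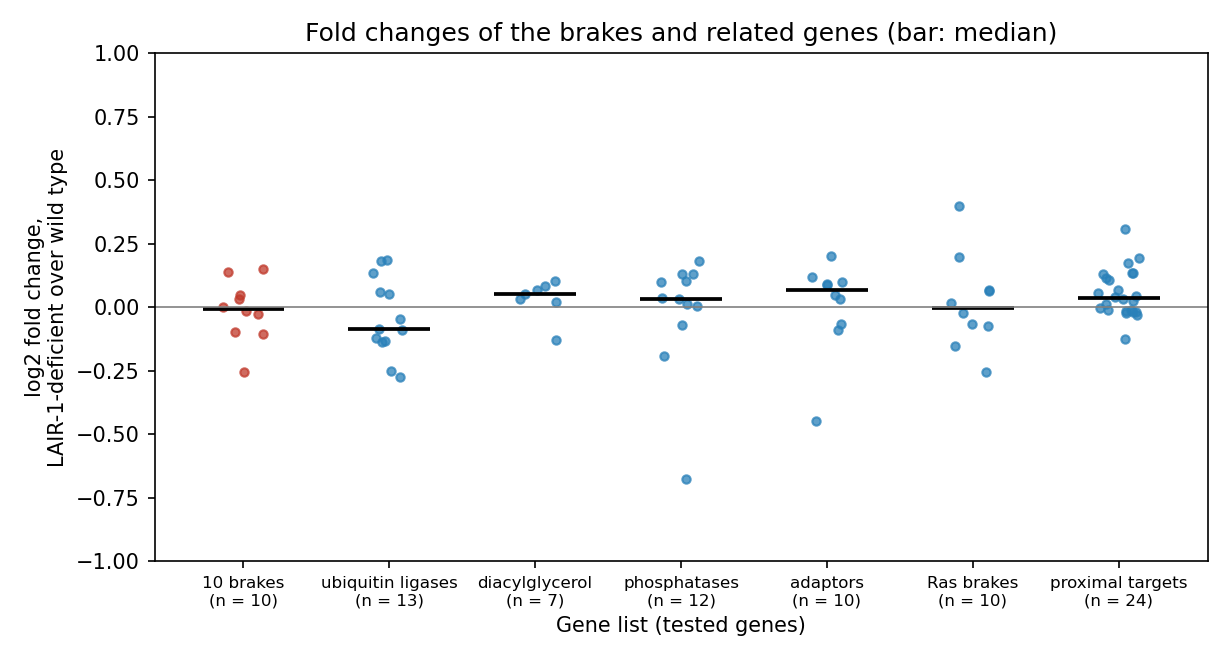
Log2 fold change, LAIR-1-deficient over wild type, of the 10 brakes (red) and of the tested genes of 6 related lists (blue), 1 point per gene, with the median of each list as a bar. Medians lie between -0.09 and 0.07, and 0 genes shown passed the test.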

How the data were processed

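RNA of sorted naive CD8 T cells gave 1 library per mouse; the labels' protocols name TruSeq small RNA primers. The authors deposited raw counts per gene in 1 column per mouse, per the file headers; the submitters' processing notes name BWA and mm10. The counting tool, annotation, strand setting and any molecular identifiers are not stated there, so overlapping genes cannot be told apart. The 4 spike-in rows (0 to 4 counts per library) were left out. Counts were filtered with filterByExpr (smallest count 10), scaled by TMM and tested in edgeR 4.0.16 (R 4.3.3), robust quasi-likelihood F test, two-sided, without covariates, adjusted over all genes tested. Intervals follow from the F statistic. DESeq2 1.42.0, limma 3.58.1, other scalings, filters, a replicate block and leaving out libraries were alternatives. The log2 CPM used an offset of 0.5. Coordinates and exon lengths are from GENCODE M21 (GRCm38). The chi-square statistic per gene between 2 libraries ran from 4.99 (LAIR-1-deficient mouse 2 and wild type mouse 3) to 23.4 (LAIR-1-deficient mouse 1 and wild type mouse 3). It is a description, and no p-value was computed. Members and lists were chosen with earlier results of these data known. Named genes are the members, Lair1, the 2 tested genes with the smallest p per pathway list, the 2 most abundant per marker list, Nr4a1, Cd69 and the 2 genes most like each of the 3 most variable members; others are marked in the text, and 1 gene of the pathway lists is not reported here.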

Additional observations from a re-analysis of the deposited data

How the results depend on the processing

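Of the 10 brakes, 0 were called under each of the 14 alternatives, and so were 0 of the pathway genes; over 140 recomputed values the log2 fold changes of the brakes lay between -0.41 and 0.29, and 122 kept their sign. Itch, Dgkz, Ubash3a and Ubash3b kept theirs in all 14. Each of the other brakes changed sign in at least 1 alternative. Ptpn2 was at 0.027 without wild type mouse 3, and Ptpn22 was at -0.16 without LAIR-1-deficient mouse 3. Cbl was at -0.0032 with no filter, -0.00059 with a smallest count of 30, -0.028 with limma-voom and -0.0037 with the replicate block, and Cblb was at 0.13 without mouse 1 of both genotypes. Leaving out 1 library at a time gave -0.093 to 0.094 for Cblb, -0.11 to 0.17 for Cbl, 0.0090 to 0.24 for Itch, -0.0060 to 0.091 for Dgka, 0.05 to 0.29 for Dgkz, -0.16 to 0.19 for Ptpn22, -0.21 to 0.027 for Ptpn2, -0.15 to -0.04 for Ubash3a, -0.41 to -0.12 for Ubash3b and -0.072 to 0.062 for Sla. It gave -0.24 to 0.024 for the log2 difference of the ratio of Dgka to Dgkz, -0.15 to 0.14 for Cblb to Cbl, -0.044 to 0.29 for Ubash3a to Ubash3b and -0.058 to 0.37 for Ptpn22 to Ptpn2. The cause of these changes was not tested. Over all genes, 1 was called in the main comparison, 3 with no filter, 0 with a smallest count of 30, where Lair1 was not tested, 0 with limma-voom, 0 without mouse 1 of both genotypes and 0 to 2 with 1 library left out. Brakes with no overlap between groups numbered 0 with all libraries, 0 to 2 with 1 library left out and 4 without mouse 1 of both genotypes, where fewer samples make an overlap less likely. Of the 10 genes, 6 held the same rank by CPM as by CPM per kb. The count of 5 brakes lowest in both mouse 1 libraries was the same with RLE size factors and with library totals; these recounts and the ratios were chosen after seeing the data.

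Over all 9565 genes tested, deviations from the group means were correlated between libraries with the same mouse number. The values were 0.30, 0.015 and 0.065 for mice 1, 2 and 3. The value for mouse 1 was the highest of all pairs across the groups. LAIR-1-deficient mouse 2 correlated best with wild type mouse 3 (0.19), and LAIR-1-deficient mouse 3 with wild type mouse 2 (0.10). Only for mouse 1 was the closest library of the other group the one with the same number. Deviations within a group cancel out, so these correlations depend on each other. Whether mouse numbers mark pairs was not tested. With the replicate block, edgeR called 1 gene, as without it, and 0 brakes. Depth is lowest for Cbl, whose 95% interval spans 0.729-fold to 1.37-fold.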
